A study of Zea mays with 4 samples.

Results

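miR156 and miR529 are plant microRNAs (miRNAs) whose known targets are mRNAs of SPL transcription factors, the SQUAMOSA PROMOTER BINDING PROTEIN-LIKE proteins that share the SBP DNA-binding domain. The members are all known maize miRNAs whose names start with zma-miR156 or zma-miR529, taken once per distinct mature sequence. This gave 4 distinct sequences under 13 names, of 72 distinct sequences under 161 names for the known miRNAs. With the 109 predicted miRNAs the table holds 181 distinct sequences. miR156 has 3 of the 4 sequences under 12 names, and miR529 has 1 sequence under 1 name. The choice was by name and used no measured value, though earlier results of these data were known when it was made.

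Small RNA libraries were made from pollen and silks of the maize inbred line B73, with 1 library per tissue and so 4 libraries in all. The study asked which miRNAs change when pollen germinates and when silks, the long stigmas of the ear, receive pollen. Mature pollen (MP) was shaken from tassels and came from lots in which more than 90% of grains germinated. Germinated pollen (GP) was the same kind of pollen after 30 min of culture in liquid germination medium, when more than 90% of grains had germinated. Mature silks (MS) were unpollinated silks about 5 cm out of the bracts. Pollinated silks (PS) were such silks 30 min after pollination with excess pollen. Loose pollen was shaken off, but PS keeps the grains and tubes that adhered, so it is a mix of silk and pollen. The number of plants behind each library was not given in the sources used here.

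miR156 keeps SPL mRNAs low in young plants, and the fall of miR156 with age lets SPL proteins rise and turn the shoot from the juvenile to the adult phase. In maize the dominant Corngrass1 mutation, which raises miR156 from the tandem miR156b and miR156c genes, holds plants in a juvenile, highly tillered state. In Arabidopsis SPL proteins in turn activate miR172, which acts on mRNAs of APETALA2-type factors. miR529 is related to miR156 in sequence and acts on part of the same SPL genes in grasses.

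The mature sequences are shown here because the members differ by few bases and their reads and predicted sites have to be read against those differences. They were taken from the deposited table and are written 5′ to 3′, with the seed (bases 2 to 8) in capitals. The first 3 share 1 seed and the last has another.

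zma-miR156b: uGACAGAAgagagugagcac

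zma-miR156k: uGACAGAAgagagcgagcac

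zma-miR156j: uGACAGAAgagagagagcaca

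zma-miR529: aGAAGAGAgagaguacagccu

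The seed of miR156 was found in 3 of the 181 distinct sequences, which are the miR156 sequences themselves, and the seed of miR529 in 1. The sequence printed for miR156b belongs to 10 names, miR156a to miR156i and miR156l, and miR156b stands for them because its count is the highest. miR156b and miR156k have 20 nt, and miR156j and miR529 have 21 nt. Counted from 1 at the 5′ end, miR156k differs from miR156b by U14C and miR156j differs from miR156b by U14A, so 19 of 20 aligned bases are identical in each pair. miR156j carries 1 more base at its 3′ end. RefSeq gene records were found for 11 of the 12 miR156 names, all but miR156c, and for miR529.

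miR529 is offset from miR156. Its first base aligns with position 5 of miR156. With miR156j, 16 of 17 aligned bases are identical and the difference is C18U. With miR156b, 14 of 16 are identical, and the differences are U14A and C18U. The longest run of identical bases with miR156j has 13 nt and is in capitals in the next lines.

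zma-miR156j: ugacAGAAGAGAGAGAGcaca

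zma-miR529: AGAAGAGAGAGAGuacagccu

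The run takes positions 5 to 17 of miR156j and positions 1 to 13 of miR529, so the whole seed of miR529 lies inside it. The capitals also cover the base at which miR156j and miR156b differ.

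Values are reads, to which the authors added reads up to 2 bp longer or shorter, and TPM, here reads scaled to the clean reads of the library, with no scaling by length. Clean reads numbered 3638941 for MP, 10575042 for GP, 5775303 for MS and 5205129 for PS. A single read is therefore worth 0.275 TPM (MP), 0.0946 TPM (GP), 0.173 TPM (MS) or 0.192 TPM (PS). Intervals are exact (Clopper-Pearson) at 95%, and since amplified reads carry no molecular identifiers, intervals and floors cover counting error only. In ratios 0 reads were replaced by a floor of 3, and no ratio is given where both counts are 3 or fewer. All tests between libraries are 2-sided Fisher's exact tests of reads. With no replicates they compare these libraries, not the conditions. Because a ratio depends on the library total it is scaled to, each was also computed under 4 other scalings. These were TMM (the trimmed mean of log ratios, which sets the typical known sequence to no change), TMM on sequences with at least 10 reads, the median ratio, and the total reads of known miRNAs. As these are bulk tissues, fewer cells that hold a miRNA and less of it per cell cannot be told apart.

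miR156b was by far the most abundant member in every library. MP had 5931 reads of it, GP 6782, MS 8064 and PS 5745. These are 1630 TPM in MP (95% interval 1589 to 1672), 641 in GP (626 to 657), 1396 in MS (1366 to 1427) and 1104 in PS (1075 to 1133). The order of levels per clean read was MP, MS, PS and GP, and no neighbouring intervals in that order overlap, though counting error is the only error in them.

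The place of miR156b among the known miRNAs differed more than its level. All known distinct sequences together took 0.546% of the clean reads of MP, 0.417% of GP, 3.22% of MS and 3.60% of PS. Of those known reads, miR156b made up 29.9% in MP (29.2 to 30.5), 15.4% in GP (15.04 to 15.72), 4.34% in MS (4.24 to 4.43) and 3.07% in PS (2.99 to 3.14). By this measure both pollen libraries stood above both silk libraries, while per clean read GP was the lowest of all.

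miR156k was rare beside miR156b and, per clean read, more frequent in silks. MP and GP had 10 reads each, MS had 87 and PS had 45. The levels were 2.75 TPM in MP (1.32 to 5.05), 0.946 in GP (0.453 to 1.74), 15.1 in MS (12.1 to 18.6) and 8.65 in PS (6.31 to 11.6). Both silk libraries lie above both pollen libraries with no overlap of intervals, while the MP and GP intervals overlap.

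miR156j and miR529 were near the detection limit of single reads. MP and MS had 3 reads of miR156j each, GP had 5 and PS had 1. Its levels of 0.824 TPM (MP), 0.473 (GP), 0.519 (MS) and 0.192 (PS) all have overlapping intervals, so no order can be given. miR529 had 15 reads in GP, 1 in MP and 2 in each silk library. Its levels were 0.275 TPM in MP (0.00696 to 1.53), 1.42 in GP (0.794 to 2.34), 0.346 in MS (0.0419 to 1.25) and 0.384 in PS (0.0465 to 1.39). GP held most of the miR529 reads, but its interval overlaps those of the other 3 libraries.

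**Figure D1:**
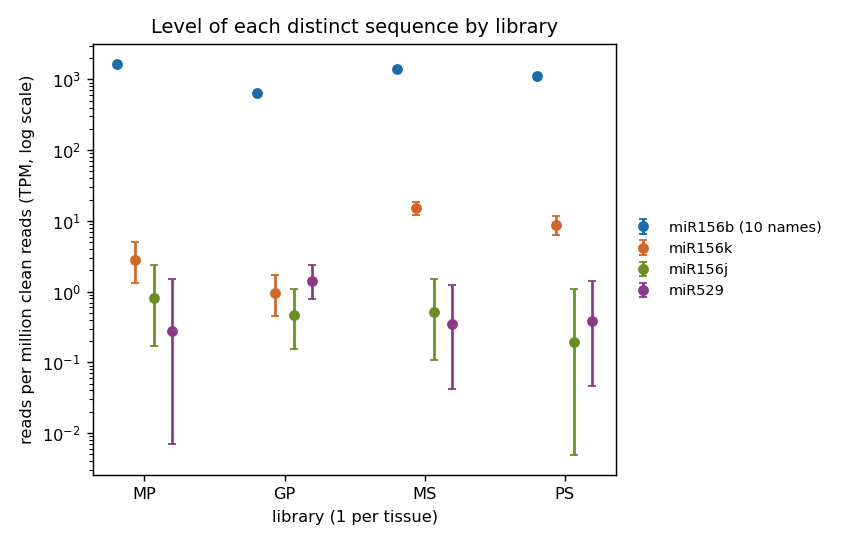
Level of each distinct sequence (TPM, log scale) in the 4 libraries, with exact 95% counting intervals. miR156b lies between 641 and 1630 TPM in every library, miR156k is at 15.1 and 8.65 TPM in MS and PS against 2.75 and 0.946 in MP and GP, and miR156j and miR529 stay at or under 1.42 TPM.

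The 10 names of the miR156b sequence did not carry the same counts, although their mature sequence is 1 and the same. miR156b and miR156d had the counts given above. miR156a and miR156c had 5925, 6780, 8002 and 5712 reads in MP, GP, MS and PS. miR156e, miR156h, miR156i and miR156l differed from those by a single read in PS, and miR156f and miR156g had 5917, 6765, 7988 and 5701 reads. The names therefore rest on almost the same reads and are not separate measurements.

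The reads that miR156b and miR156d had beyond miR156a were unevenly spread over the libraries. MP had 6 of them, GP 2, MS 62 and PS 33. As a share of the miR156b count these are 0.101% in MP (0.0371 to 0.220), 0.0295% in GP (0.00357 to 0.106), 0.769% in MS (0.590 to 0.985) and 0.574% in PS (0.396 to 0.806). Both silk shares exceed both pollen shares with no overlap of intervals. The reads by which miR156a exceeded miR156f showed no such split, with 8, 15, 14 and 11 reads in MP, GP, MS and PS, or 0.135%, 0.221%, 0.175% and 0.193% of the miR156a count. This comparison was chosen after the counts were seen and is given as a description with no test. Which length variants the reads are was not analysed here.

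The first comparison asks what differed between pollen that had germinated for 30 min and pollen that had not. A sequence was called at p under 0.01 with a log2 ratio over 1.5 in size, the limits the study set for pollen. In every comparison a sequence with no ratio could not be called, but it stays among those tested in the shares called. miR156b was 2.54-fold higher in MP than in GP (2.45 to 2.63), or -1.35 as log2 of GP over MP (-1.40 to -1.30). Its p was too small to be stored as anything but 0, but its ratio stayed inside the 1.5 limit. The log2 ratio was -0.96 with the total of known reads, -0.22 with the median ratio and -0.062 with TMM on sequences of 10 or more reads, and its sign turned only with TMM, to 0.063.

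miR156k, with 10 reads in each library, was 2.91-fold higher in MP (1.09 to 7.78), a log2 ratio of -1.54 (-2.96 to -0.12). Its p was 0.0191 by Fisher's exact test, and 0.0523 after Benjamini-Hochberg adjustment over all 123 sequences tested, so it was not called here. The study, with its own chi-square test, did list miR156k as lower in GP at the same log2 ratio. By stem-loop RT-PCR it described the pattern as similar and the level as slightly different. A chi-square test of the counts used here gave p = 0.0124, also above 0.01. For miR529 the log2 of GP over MP was 2.37 (-0.33 to 7.76) with p = 0.0884 by Fisher's exact test, adjusted p = 0.198, and was not called. Its log2 ratio became 3.78, 3.49 and 3.65 and passed the limits of the same Fisher's exact test under scaling by TMM, by median ratio and by TMM with at least 10 reads. miR156j had a log2 ratio of -0.80 (-3.16 to 1.88) and p = 0.430, adjusted p = 0.654. Its sign turned under the same 3 scalings, to 0.61, 0.32 and 0.48.

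None of the 4 members was called here between GP and MP, against 21.1% of all 123 sequences tested, or 26 sequences. The 26 calls were 15 higher and 11 lower in GP, and under TMM they were 42, with 39 higher and 3 lower. The median log2 ratio was -0.15 over the 89 sequences with a ratio and 0.20 over the 21 known sequences with at least 10 reads in either library. Among those 21, 6 were lower than miR156b in GP relative to MP and 14 were higher. miR529 had the highest computed ratio, but this rank depends on the floor. miR399b, with 24 reads in GP and 0 in MP, was set to a log2 ratio of 1.46 by the floor of 3 reads.

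The next comparison asks what differed between silks 30 min after pollination and unpollinated silks. The study called a miRNA higher in PS at a log2 ratio over 1.5. Its silk reads also had to exceed those of GP or MP by more than 10 times. A call of lower needed a log2 ratio under -2. Calls made here also needed p under 0.01, with 0 reads set to the floor of 3. Some sequences with 0 reads in PS that the study called lower were therefore not called. miR156b was 1.27-fold higher in MS than in PS (1.22 to 1.31), a log2 ratio of PS to MS of -0.34 (-0.39 to -0.29), with p = 1.01e-42 by Fisher's exact test and adjusted p = 1.77e-41. miR156k was 1.74-fold higher in MS (1.20 to 2.56), a log2 ratio of -0.80 (-1.35 to -0.27), with p = 0.00221 and adjusted p = 0.00919 by the same exact test. Both ratios lie inside the silk limits. miR156j and miR529 had 3 reads or fewer in both silk libraries, so no ratio is given.

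No member was called between PS and MS, against 9.49% of the 158 sequences tested (11 higher and 4 lower in PS, or 6 and 4 under TMM). Both measured ratios lay under the median log2 ratio of all sequences, which was 0.31 over 109, and of the 44 known sequences with at least 10 reads, which was 0.33. Of those 44, 31 were higher in PS and 13 lower. The ratio of miR156b was lower than that of 34 of them and higher than that of 9.

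PS holds adhering pollen, and the pollen part of a PS count cannot be read from these libraries. As a description, 22 sequences reached 5 TPM in MP or GP and 5 times or more their MS level there. Their summed level was 276 TPM (MP), 574 TPM (GP), 22.0 TPM (MS) and 6.92 TPM (PS), and 15 of the 22 had 0 reads in PS. The low MS value is part of how they were chosen, but the PS level was not used. Their part in the miR156 values of PS was not tested.

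MS and MP were then set side by side, the female and male tissues before they meet. With no limits from the study for silk against pollen, the pollen limits were used. The direction of miR156k between MS and MP differed from that of miR156b. miR156k was 5.48-fold higher in MS (2.84 to 11.8), a log2 ratio of MS to MP of 2.45 (1.51 to 3.56), with p = 7.45e-10 by Fisher's exact test and adjusted p = 3.18e-09. It was called higher, as were 29.0% of the 162 sequences tested, with 42.6% called in either direction and 55.0% of the 60 known sequences. Of the 162, only 120 had a ratio and could be called. The call was lost and the sign turned under each of the 4 other scalings. The log2 ratio became -0.91 with TMM, -1.08 with the median ratio, -0.91 with TMM on sequences of 10 or more reads and -0.11 with the total of known reads. The 69 calls, 47 higher and 22 lower in MS, became 57 under TMM with 13 higher and 44 lower.

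miR156b was 1.17-fold higher in MP than in MS (1.13 to 1.21), a log2 ratio of MS to MP of -0.22 (-0.27 to -0.17), with p = 2.19e-19 by Fisher's exact test and adjusted p = 1.32e-18, and was inside the limits. Under the 4 other scalings its log2 ratio was between -2.78 and -3.75 and passed them. Most other known miRNAs had more reads per clean read in MS. Of the 40 known sequences with at least 10 reads in either library, 36 were higher in MS and 4 lower, and their median log2 ratio was 3.55, against 0.89 over all 120 sequences with a ratio. Of those 40, 36 had a higher ratio than miR156b and 27 a higher ratio than miR156k. miR156j and miR529 had 3 reads or fewer in both libraries, so no ratio is given.

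PS and GP gave the same kind of comparison after pollination and germination. miR156b was 1.72-fold higher in PS than in GP (1.66 to 1.78), a log2 ratio of PS to GP of 0.78 (0.73 to 0.83), with p = 2.72e-196 by Fisher's exact test and adjusted p = 2.49e-195. It was inside the limits. Under each of the 4 other scalings its sign turned, to between -2.24 and -2.40, and it passed the limits as lower in PS. miR156k was 9.14-fold higher in PS (4.54 to 20.3), a log2 ratio of 3.19 (2.18 to 4.35), with p = 1.26e-13 by Fisher's exact test and adjusted p = 3.85e-13. It was called higher, as were 42.5% of the 174 sequences tested, with 62.6% called in either direction. Under the other scalings its log2 ratio lay between 0.012 and 0.17 and it was no longer called. The 109 calls, 74 higher and 35 lower in PS, became 90 under TMM with 31 higher and 59 lower.

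The rare members had more reads in GP than in PS without passing the limits. miR529 was 3.69-fold higher in GP than in PS (0.858 to 33.3), a log2 ratio of PS to GP of -1.88 (-5.06 to 0.22), with p = 0.0723 and adjusted p = 0.101 by Fisher's exact test. miR156j had a log2 ratio of -1.30 (-6.86 to 1.86) with p = 0.671 by Fisher's exact test and adjusted p = 0.743. Both passed the limits under the other scalings, with log2 ratios between -4.91 and -5.06 for miR529 and between -4.32 and -4.48 for miR156j, on 15 against 2 reads and 5 against 1 read.

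The median log2 ratio of PS to GP was 2.02 over the 140 sequences with a ratio and 4.72 over the 45 known sequences with at least 10 reads, of which 41 were higher in PS and 4 lower. Among those 45, 38 had a higher ratio than miR156b, 27 a higher ratio than miR156k and 42 a higher ratio than miR529. The PS and MS comparisons with pollen and with each other share libraries and are not independent of one another.

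**Figure D2:**
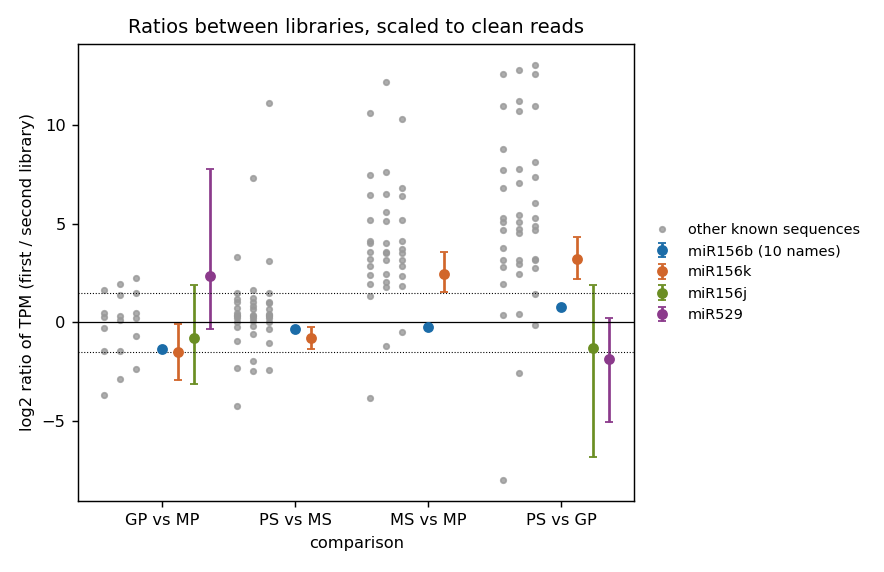
Log2 ratio of TPM (first library over second) in 4 comparisons for the members, with exact 95% intervals, and in grey for the other known sequences with at least 10 reads in either library. Dotted lines mark 1.5 on either side of 0, the solid line marks 0, and only miR156k in MS vs MP (2.45) and in PS vs GP (3.19) was called among the members.

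Which total of a library is the right base for such ratios cannot be told from the table, and the known miRNAs took a larger part of the clean reads in silks. Relative to clean reads, TMM moved every log2 ratio by 1.41 in GP vs MP, -0.25 in PS vs MS, -3.36 in MS vs MP and -3.09 in PS vs GP. The total of known reads moved them by 0.39, -0.16, -2.56 and -3.11. Comparisons between pollen and silks therefore moved most.

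**Figure D3:**
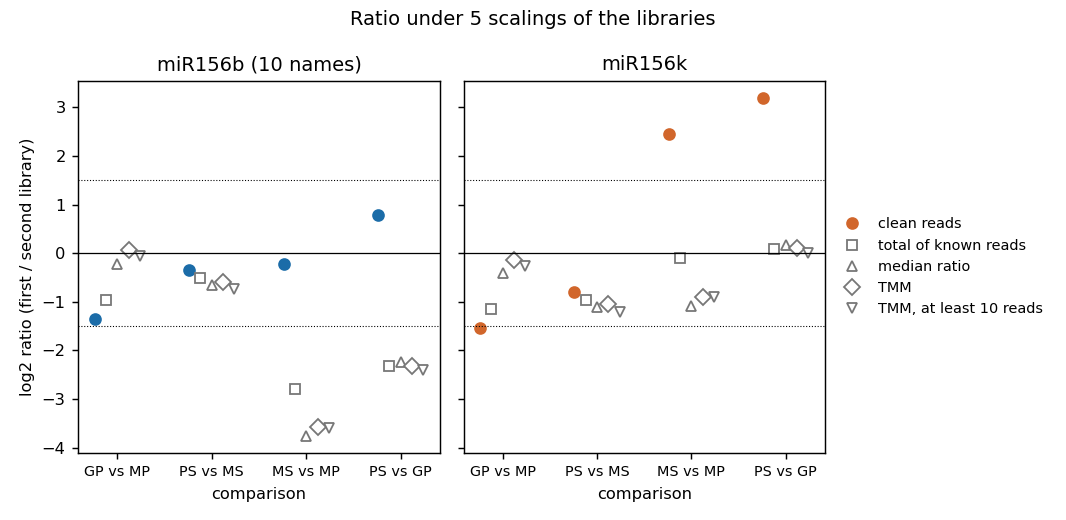
Log2 ratio of miR156b (left) and miR156k (right) in 4 comparisons under 5 scalings of the libraries, with filled points for clean reads, the base of TPM. In MS vs MP miR156b goes from -0.22 to values down to -3.75 and miR156k from 2.45 to values down to -1.08, while the distance between the pair in a comparison is the same under every scaling.

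A ratio of 2 sequences inside 1 library has no such base, so miR156k was next read against miR156b. The sequences compared are these, with the base at which they differ in capitals.

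zma-miR156b: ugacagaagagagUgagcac

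zma-miR156k: ugacagaagagagCgagcac

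Of the reads of this pair, miR156k took 0.168% in MP (0.0807 to 0.309), 0.147% in GP (0.0706 to 0.271), 1.07% in MS (0.856 to 1.31) and 0.777% in PS (0.567 to 1.04). Both silk shares lie above both pollen shares with no overlap of intervals. The pollen intervals overlap each other, as do the silk intervals.

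miR156k relative to miR156b was 6.40-fold higher in MS than in MP (3.31 to 13.8), a log2 ratio of ratios of 2.68 (1.73 to 3.79), with p = 6.32e-12 by Fisher's exact test and adjusted p = 4.43e-11. It was 5.31-fold higher in PS than in GP (2.64 to 11.8), a log2 value of 2.41 (1.40 to 3.56), with p = 7.07e-08 by Fisher's exact test and adjusted p = 2.38e-07. Both passed the limits. The same ratio, of a sequence to the most abundant sequence of its family, was called higher for 7.14% of 28 family members in MS vs MP, which is 2, and for 13.3% of 30 in PS vs GP, which is 4. Called in either direction were 25.0% and 46.7%. Among the calls of higher in both comparisons is miR156k itself. The shares count family members with no ratio, which could not be called, so they would be larger over members with a ratio. Some members had 0 pollen reads, set to the floor, against a most abundant sequence with few pollen reads. For miR164h the log2 value in MS vs MP was -8.07, with 0 reads in MP set to 3, against 4 reads of miR164g.

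Within pollen and within silks the pair kept its ratio closer. Between GP and MP the log2 ratio of ratios was -0.19 (-1.62 to 1.23) with p = 0.825 by Fisher's exact test and adjusted p of 1, where 9.52% of 21 family members were called. Between PS and MS it was -0.46 (-1.02 to 0.08) with p = 0.0916 by Fisher's exact test and adjusted p = 0.261, where 13.5% of 37 were called. These intervals still allow a difference in either direction.

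miR156k differs from the far more frequent miR156b by a single base, and the part of misread bases in its counts was not tested. miR156j, which differs from miR156b at the same position, took 0.0506% of the reads of its pair with miR156b in MP (0.0104 to 0.148), 0.0737% in GP (0.0239 to 0.172), 0.0372% in MS (0.00767 to 0.109) and 0.0174% in PS (0.000441 to 0.0969). The intervals of those shares overlap in all libraries and their upper ends lie under the miR156k shares of silks. In MP and in GP the intervals of miR156j and miR156k overlap. How often either base change arises by misreading was not tested. Relative to miR156b, the log2 ratio of ratios of miR156j was 0.54 in GP vs MP with p = 0.731 and -2.08 in PS vs GP with p = 0.228, both by Fisher's exact test. No ratio is given for the other comparisons, with 3 reads or fewer in each library.

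miR529 set against miR156b in the same way took 0.0169% in MP (0.000427 to 0.0939), 0.221% in GP (0.124 to 0.364), 0.0248% in MS (0.00300 to 0.0895) and 0.0348% in PS (0.00421 to 0.126). GP stands above MP and MS with no overlap of intervals, and just touches the interval of PS. miR529 belongs to another family than miR156b, so this pair was not among those tested.

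**Figure D4:**
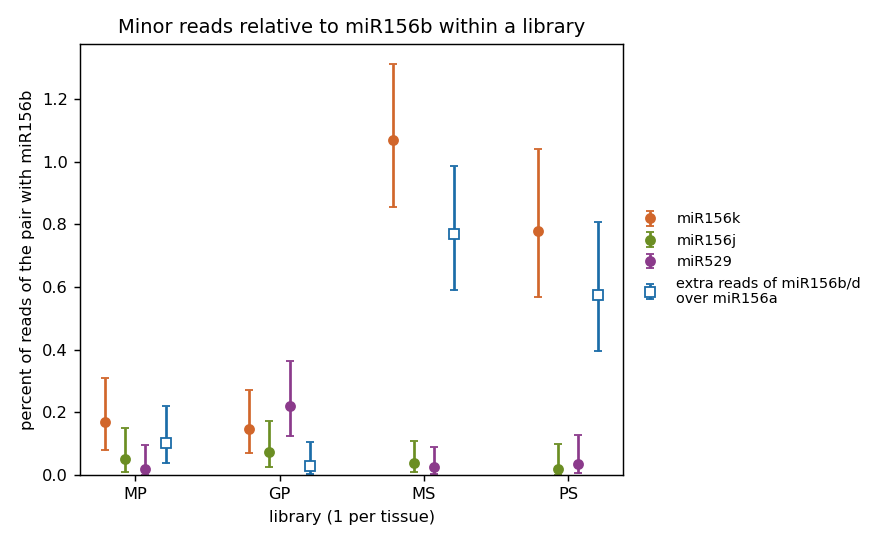
Reads of miR156k, miR156j and miR529 as a percent of the reads of each with miR156b, and reads of the name miR156b beyond those of miR156a as a percent of miR156b (open squares), by library with exact 95% intervals. miR156k is at 1.07% and 0.777% in MS and PS against 0.168% and 0.147% in MP and GP, the open squares rise in the same libraries, and miR529 is highest in GP at 0.221%.

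Among the known sequences with reads in each library, the rare members stood at different ranks. miR156k was 15th of 38 in MP, 19th of 46 in GP, 25th of 57 in MS and 27th of 62 in PS. miR529 was 32nd in MP, 14th in GP, 48th in MS and 52nd in PS. miR156j was 22nd, 22nd, 46th and 54th. miR529 thus ranked above miR156k in GP and below it in the other 3 libraries. In GP this rests on 15 against 10 reads, with overlapping intervals of their levels. Elsewhere the rank of miR529 rests on 1 or 2 reads.

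The miRNAs whose pattern over the 4 libraries was most like that of miR156b were miR396a and miR396e, which act on mRNAs of GROWTH-REGULATING FACTOR proteins. Likeness was the Euclidean distance between log2(TPM + 1) values centred on their mean over the 4 libraries, over 31 sequences of other families with at least 100 reads. miR396a, at a distance of 0.875, had 190 TPM in MP, 36.1 in GP, and 135 and 137 in MS and PS. Like miR156b, it was highest in MP and lowest in GP, with both silk libraries between. miR396e, at 1.11, had 12.6, 7.85, 5.54 and 7.11 TPM, and the next, miR168a, was farther off at 2.46.

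miR156k had other neighbours, of which miR168a, a regulator of ARGONAUTE1, was nearest at a distance of 0.826. miR168a had 2732 and 2206 TPM in MP and GP, and 14671 and 15284 in MS and PS. miR166l, which acts on class III HD-ZIP mRNAs, was at 1.26 with 6.32, 6.90, 45.2 and 60.5 TPM. miR160a, which acts on AUXIN RESPONSE FACTOR mRNAs, was at 1.45 with 2.20, 0.189, 35.8 and 6.53 TPM. All 3 were higher in both silk libraries than in both pollen libraries per clean read. These distances rest on 4 libraries and are descriptions.

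miR172, the next step of the pathway, has 2 distinct sequences under 5 names here. miR172a, whose sequence has 4 names, had 0 reads in MP, which allows a level of up to 1.01 TPM by the exact interval, and the floor of 3 reads used in its ratios is 0.824 TPM there. GP had 5 reads, MS 34 and PS 84. These are 0.473, 5.89 and 16.1 TPM, so the silk libraries were high and the pollen libraries at or near 0. miR172e had 3 reads (MP), 4 (GP), 2 (MS) and 5 (PS) and was called in none of the 4 comparisons.

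miR172a was called higher in silks against pollen per clean read. Set against the floor of 3 reads in MP, it was 7.14-fold higher in MS, with p = 8.97e-08 by Fisher's exact test. This is not a lower limit, because 0 reads in MP allow up to 1.01 TPM, which is above the floor. The call between MS and MP was lost under the 4 other scalings, with log2 ratios to the floor between -0.70 and 0.27. In PS it was 34.1-fold higher than in GP, a log2 ratio of 5.09 (3.81 to 6.75), with p = 2.00e-34 by Fisher's exact test, and it was still called under the other scalings with log2 ratios between 1.91 and 2.07. Between PS and MS it was 2.74-fold higher in PS, a log2 ratio of 1.45 (0.86 to 2.07), with p = 2.41e-07 by Fisher's exact test and adjusted p = 1.66e-06, just under the 1.5 limit. Over the same 2 silk libraries miR156b and miR156k were lower in PS, at -0.34 and -0.80, also inside the limits. The levels of miR172 and of miR156 were not tested for a relation, which 4 libraries could not show.

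The deposited table also lists predicted target sites, found by the authors by sequence pairing with fewer than 3 mismatches. They are predictions, with no reads behind them. miR156b has 25 predicted target genes through 46 transcripts, of which 19 genes, or 76.0%, are SPL genes by the description in the list or the RefSeq symbol. miR156k has 24 genes through 45 transcripts, with 19 SPL or 79.2%, and miR156j has 23 genes through 42 transcripts, with 19 SPL or 82.6%. miR529 has 6 genes through 10 transcripts, and all 6 are SPL. None of the 27 genes in all is listed as a target of any other miRNA of the table.

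The 19 SPL genes, counted by ID, were the same for the 3 miR156 sequences. The 6 genes of miR529 all lie among them. These are GRMZM2G101511, which is tga1 (teosinte glume architecture1, the gene that sets whether the kernel is encased), GRMZM2G160917, which is ub2 (unbranched2), GRMZM2G460544, which is ub3 (unbranched3), GRMZM2G126018, which is sbp23, and GRMZM2G307588 and AC233751.1, given by their IDs. ub2 and ub3 limit the number of kernel rows in the ear. RefSeq symbols or gene records were found for 22 of the 27 IDs, and these are 21 distinct RefSeq genes. GRMZM2G126827 and GRMZM2G156621 both have the record of sbp12, so the numbers of target genes are numbers of IDs.

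The 8 genes not annotated as SPL differ more between the members. All 3 miR156 sequences share 3 of them, GRMZM2G052921, GRMZM2G551565 and GRMZM5G806833, for which the target list gives no description. miR156b and miR156k share GRMZM2G465165, described as a lectin protein kinase. miR156b alone has GRMZM2G016439, a histidine-containing phosphotransfer protein, and GRMZM2G133959, an alpha/beta-hydrolase. miR156k alone has GRMZM2G033199, described as polymerase delta 4, and miR156j alone has GRMZM2G124371, described as an RCC1 protein with a FYVE zinc finger. The SPL targets thus do not separate miR156k from miR156b, which differ only in 3 of the other genes.

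**Figure D5:**
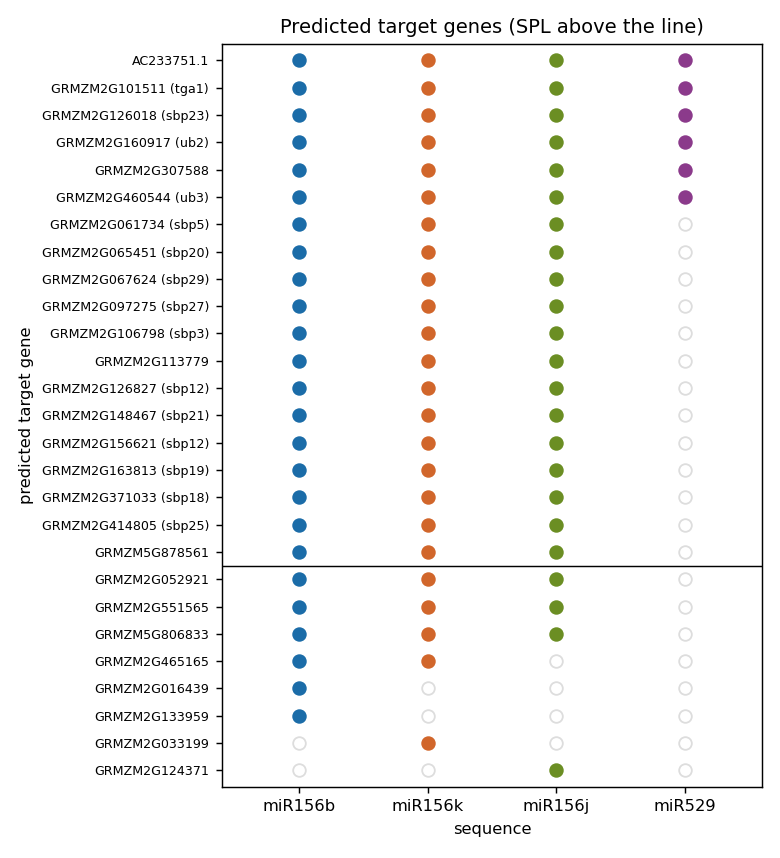
Predicted target genes (rows, with RefSeq symbols where found) of each sequence (columns), with a filled point for a predicted site and an open point for none. The 19 SPL genes above the line have sites for all 3 miR156 sequences and the top 6 also for miR529, while 3 of the 8 genes under the line are shared by all miR156 sequences.

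The predicted sites of miR529 overlap those of miR156. On all 10 transcripts that both pair with, the miR529 site starts 5 nt and ends 4 nt before the miR156b site, so that 16 nt belong to both. On transcript T01 of tga1 the miR156b site takes transcript positions 1202 to 1221 and the miR529 site positions 1197 to 1217. On T01 of ub3 the sites are at 1138 to 1157 and 1133 to 1153, and on T01 of ub2 at 1408 to 1427 and 1403 to 1423. Sites are read 5′ to 3′ along the mRNA and a miRNA pairs in the opposite sense, so the offset at the end of the site matches the 4 bases of miR156 that precede the first base of miR529 in the alignment above. The miR156k sites have the same start and end as those of miR156b on 42 shared transcripts, and the miR156j sites start 1 nt earlier and end at the same base.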

How the data were processed

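Per the labels and the study's methods, the authors mapped clean reads to the maize genome (B73 RefGen_v2) with SOAP and compared them with miRBase by Blastn once reads of rRNA, tRNA and snoRNA were taken out. The deposited counts are whole reads per named miRNA, to which the authors added variants of up to 2 bp in length. The deposited TPM are counts scaled to the clean reads of the library. The clean reads were recovered from the ratio of counts to TPM, and TPM computed again from these whole numbers differed by 0 for every entry. The 6 deposited p-value columns hold the authors' chi-square comparisons and were not used. The number of unused columns of per-sample values is 0.

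Each distinct sequence was taken once, with its name of most reads. Libraries were compared with Fisher's exact test on reads against the other clean reads (scipy 1.17.1, Python 3.11.15, numpy 2.4.6), with Benjamini-Hochberg adjustment over all distinct sequences with reads in either library. Ratios within families were tested over all family members of the table. A count model needs replicates, and each tissue had 1 library, so none was fitted. edgeR 4.0.16 and DESeq2 1.42.0 (R 4.3.3) gave only the TMM and median-ratio factors of the alternatives. The depth was 3638941 to 10575042 clean reads, and the floor of 3 reads is 0.284 to 0.824 TPM. The scripts were tested on simulated data. Figures were drawn with matplotlib 3.10.9.

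Named are all members, the miR172 sequences, the 3 sequences nearest in pattern to miR156b and to miR156k, and the predicted target genes. The names of miR156b were compared after their counts were seen. The members and lists were chosen with earlier results of these data known. Alternatives were other scalings, a minimum of 10 reads, the name with fewest reads, 1 read added, the chi-square test and adjusted p. Symbols of target genes came from RefSeq (Zm-B73-REFERENCE-NAM-5.0), used for names only because its build differs from that of the files.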

Additional observations from a re-analysis of the deposited data

Results flagged for a closer look

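miR156b differed in direction between the 2 comparisons of silk with pollen. The log2 ratio of MS to MP was -0.22 and that of PS to GP was 0.78, so that silks were lower than pollen before pollination and germination and higher after. The difference between the ratios was not tested, and there is 1 library for each tissue. Under each of the 4 other scalings both ratios were below 0.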

How the results depend on the processing

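Of 88 values for members under alternatives, 57 kept their direction and side of the limits, 15 kept their direction and came to pass the limits, 4 kept it and no longer passed, and 12 changed sign, and every change came from another scaling of the libraries. Between GP and MP, the log2 ratio of miR156b became 0.063 under TMM. That of miR156j became 0.61 under TMM, 0.32 under the median ratio and 0.48 under TMM with at least 10 reads, and that of miR529 became 3.78, 3.49 and 3.65, past the limits (p = 0.000618, 0.00199 and 0.00152 by Fisher's exact test). Between MS and MP under TMM, median ratio, TMM with at least 10 reads and total known reads, miR156b was at -3.58, -3.75, -3.59 and -2.78, past the limits, and miR156k at -0.91, -1.08, -0.91 and -0.11, changed in sign and no longer called. Between PS and GP under the same 4, miR156b was at -2.31, -2.24, -2.40 and -2.33, changed in sign and past the limits, miR156k at 0.10, 0.17, 0.012 and 0.083, not called, miR156j at -4.39, -4.32, -4.48 and -4.41 and miR529 at -4.98, -4.91, -5.06 and -4.99, past the limits. Over all sequences, calls between GP and MP went from 26 to 42 under TMM (39 higher, 3 lower) and 40 under TMM with at least 10 reads (36 higher, 4 lower), and calls of known sequences between MS and MP from 33 to 20 under total known reads (15 higher, 5 lower). The other 25 of 28 counts of calls moved by no more than 1.5 times. The ratios within families kept their direction and side of the limits in 24 of 24 alternatives. The name with fewest reads, 1 added read, the chi-square test and the adjusted p changed no member's call or direction, and the minimum of 10 reads was applied to the counts of calls alone. No paired analysis was possible because each tissue had 1 library, and for the same reason none could be left out. miR156j and miR529 had at most 15 reads in a library, so differences between tissues smaller than several-fold were not detectable for them at this depth.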
